A study of Homo sapiens with 12 samples.

Results

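The chemokine ligand genes were taken as the symbols of the U937 transcript table that begin with CCL, CXCL, XCL or CX3CL followed by a digit. Each symbol was represented by whichever of its transcripts had the largest mean value. The rule found 45 of the 44786 symbols in the table, which carried 189 of its 197782 transcripts. Of the 45, 10 passed the filter on low values and were tested, 4 reached more than 3 reads in a library without passing, 11 had 1 to 3 reads at most, and 20 were listed at 0 in every library.

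Chemokines are small secreted proteins that steer migrating leukocytes along concentration gradients by binding G protein-coupled receptors on their surface. They are sorted by the spacing of conserved cysteines into the CC, CXC, XC and CX3C families, and by use into inflammatory ligands, which are induced by cytokines or microbial products, and homeostatic ligands, which position cells in tissues. Monocytes and macrophages are major sources of inflammatory chemokines, and leukemic cells of this lineage can release them as well.

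The study asked how decitabine (DAC), a cytosine analogue that depletes DNA methyltransferase in dividing cells, and all-trans retinoic acid (ATRA), the ligand of retinoic acid receptors, act alone and together in AML cells. RNA-seq of U937, an established human AML cell line of myelomonocytic type, comprised 3 libraries in each of 4 groups. All groups grew in RPMI with 20% FCS and GM-CSF at 5 ng/ml according to the labels, and the culture methods of the study name a lower share of serum. Ribosomal RNA was depleted and strand-specific libraries were sequenced in pairs.

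Untreated cells received neither drug, and their labels read 96 h. The DAC group received 200 nM DAC on 3 consecutive days with a daily change of medium, the ATRA group 1 µM ATRA, and the DAC + ATRA group both agents at these doses. Labels of the 3 treated groups read 72 h, so that the time named for the untreated libraries differs, whereas the series text names a harvest after 72 h without setting the untreated cells apart. In the methods of the study ATRA was given together with the last dose of DAC. Libraries are numbered 1 to 3 for untreated, 4 to 6 for DAC, 7 to 9 for ATRA and 10 to 12 for DAC + ATRA cells.

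Values are normalized read counts, that is, reads counted per transcript divided by 1 size factor for the library. Between 8042435 and 10683593 reads were counted per library, and 3 reads corresponded to 2.50 to 3.71 normalized reads. A transcript was tested if it reached a normalized read count of 10 in at least 3 of the 12 libraries, which held for 19373 transcripts. Each comparison was tested with limma on log2(normalized read count + 1), and a change was called at a Benjamini-Hochberg adjusted p under 0.01. On this scale the fold change of a transcript with few reads is understated. The p-values measure only the spread between libraries, which the series text calls technical triplicates. In bulk RNA, fewer cells of a type and less RNA per cell cannot be told apart.

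With DAC, the 10 tested members rose. On the scale of log2(normalized read count + 1), XCL2 and CCL1 had the largest log2 fold changes, 6.39 and 5.97, beside 5.35 for CCL28. By ratio of mean values CCL28, with 1 read in the untreated group, was highest at 169, beside 95.7 for XCL2 and 68.4 for CCL1. CXCL9 had no untreated read and thus no ratio. Over all alternative settings CCL28 and CXCL9 reached 7.84 and 7.63, and XCL2 and CCL1 reached 6.60 and 6.10. ATRA alone left 9 of the 10 tested members without a call. When ATRA was added to DAC, CCL1, XCL1 and XCL2 were lower than with DAC alone, whereas CXCL8 and CXCL10 had their highest values with both agents. The summed normalized read count of all members was 283, 191 and 200.4 in the untreated libraries, 1883, 2118 and 2045 with DAC, 413, 293 and 236 with ATRA, and 1154, 1280.0 and 1476 with DAC + ATRA. The DAC-containing libraries thus lay above the libraries without DAC. CXCL8 and CXCL2 made up 82.3% of the sum in untreated and 82.7% in ATRA-treated cells. CCL1 and XCL2 made up 63.2% with DAC, and CXCL8 and CCL1 70.9% with DAC + ATRA.

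Against untreated cells, DAC changed 10 of the 10 tested members, all upwards, beside 33.5% of all tested transcripts, of which 4296 rose and 2189 fell. ATRA changed 1 of 10, downwards, beside 6.97% of all transcripts, and 4 of the 10 had an unadjusted limma p under 0.05. DAC + ATRA changed 9 of 10 upwards, beside 41.6% of all transcripts. Over the 10 members, DAC gave a median log2 fold change of 3.69, ATRA of 0.47 and both agents of 3.39, beside 0.05, 0.00 and 0.05 over the 19373 transcripts. These 3 comparisons share the untreated libraries. The filter fixed part of this outcome: CCL28, CXCL9, CXCL10, CXCL11 and XCL2 reached a value of 10 in the 6 DAC-containing libraries only, and CCL2 in 8 libraries. Members that passed the filter through the groups where they were high had to differ, so that the counts and medians describe the 10 members and support nothing beyond them.

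**Figure D1:**
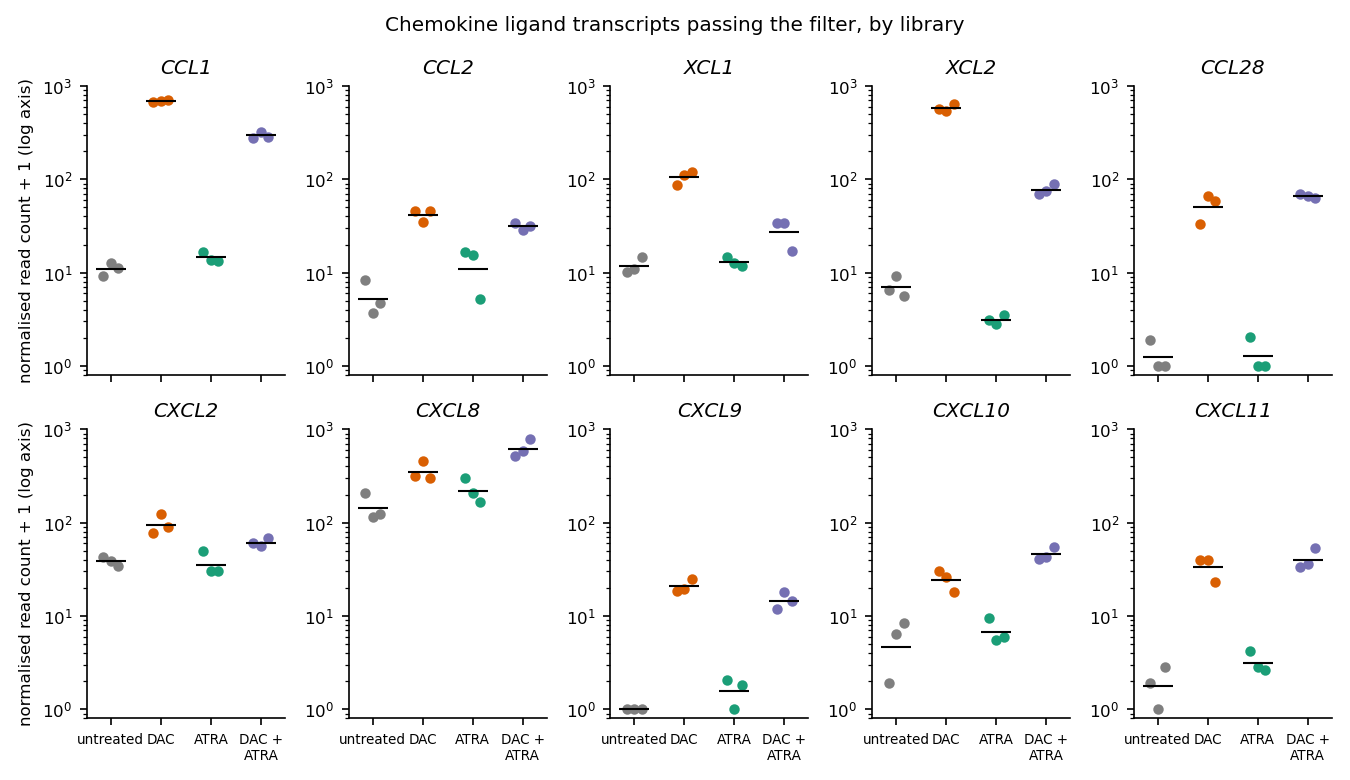
Normalized read count + 1 on a log axis for the 10 tested chemokine ligand transcripts, with 1 point per library and a bar at the mean of the 3 log values in each group. For each gene the DAC and DAC + ATRA libraries lie above the untreated libraries. For CCL1, CCL2, CXCL2, CXCL9, XCL1 and XCL2 the DAC + ATRA libraries lie between the untreated and the DAC libraries.

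XCL1 and XCL2 are near-identical C-type chemokines, made mainly by activated T cells and NK cells, that attract dendritic cells bearing the receptor XCR1. Both genes lie on chromosome 1 of hg38, 32608 bp apart. XCL2 (ENST00000367819, minus strand) covers 168540768 to 168543997 and XCL1 (ENST00000367818, plus strand) 168576605 to 168582069, and both have 3 exons. None of their 50-base exon windows had an exact copy elsewhere in hg38, the other gene included.

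The normalized read count of XCL2 was 5.51, 8.19 and 4.62 in untreated libraries, 568, 542 and 645 with DAC, 2.11, 1.82 and 2.50 with ATRA, and 68.7, 74.7 and 87.7 with DAC + ATRA. The 4 groups did not overlap, with DAC highest, DAC + ATRA next, untreated below these and ATRA lowest. Against untreated cells XCL2 rose by 6.39 on the log2 scale with DAC (SE 0.23, limma with Benjamini-Hochberg adjustment, adjusted p = 1.35e-17), a ratio of mean values of 95.7. With DAC + ATRA the log2 fold change was 3.48 (SE 0.23, limma with Benjamini-Hochberg adjustment, adjusted p = 2.20e-12) and the ratio 12.6. XCL1 values were 9.19, 10.01 and 13.9 in untreated libraries, 86.5, 111 and 119 with DAC, 13.7, 11.8 and 10.8 with ATRA, and 33.5, 32.6 and 16.1 with DAC + ATRA. DAC libraries were again highest and DAC + ATRA libraries intermediate, whereas untreated and ATRA libraries overlapped. XCL1 rose by 3.15 with DAC (ratio 9.56) and by 1.19 with DAC + ATRA (ratio 2.49).

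The promoter of XCL2 is shown because this transcript had the highest ratio to untreated cells among the members with more than 3 reads in each group. It is the RefSeq promoter of GRCh38.p14, 250 bases before to 50 after the start, 5′ to 3′. Capitals mark a match to GGGNNTTTC, a core of NF-kB sites, on the opposite strand, 75 bases before the start.
XCL2, chr1:168543948-168544247, minus strand: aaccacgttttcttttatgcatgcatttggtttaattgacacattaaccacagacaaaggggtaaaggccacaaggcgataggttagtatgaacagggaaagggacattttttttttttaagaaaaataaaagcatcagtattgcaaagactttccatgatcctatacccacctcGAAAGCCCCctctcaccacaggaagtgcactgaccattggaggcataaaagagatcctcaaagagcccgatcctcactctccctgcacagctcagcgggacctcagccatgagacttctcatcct
It holds 5 CpG dinucleotides. A promoter of XCL1 was not in the reference table.

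CCL1, a CC chemokine of activated T cells and monocytes, attracts monocytes and T cells through CCR8. Its transcript (ENST00000225842) has 3 exons and covers chr17:34360328-34363233 (minus strand). CCL1 was measured at 8.27, 11.8 and 10.2 normalized reads in untreated libraries, 668, 689.7 and 711 with DAC, 15.8, 12.7 and 12.5 with ATRA, and 279, 323 and 285 with DAC + ATRA. The groups were ordered DAC, DAC + ATRA, ATRA and untreated, without overlap. Against untreated cells the log2 fold change was 5.97 with DAC (SE 0.17, limma with Benjamini-Hochberg adjustment, adjusted p = 1.29e-19) and 4.75 with DAC + ATRA (SE 0.17, limma with Benjamini-Hochberg adjustment, adjusted p = 7.55e-18). The mean was 68.4 times the untreated mean with DAC and 29.3 times with DAC + ATRA. The RefSeq promoter of CCL1, shown for the transcript with the highest value per kb of exon in the DAC group, held 4 CpGs and no match to any of the 3 motifs searched.
CCL1, chr17:34363184-34363483, minus strand: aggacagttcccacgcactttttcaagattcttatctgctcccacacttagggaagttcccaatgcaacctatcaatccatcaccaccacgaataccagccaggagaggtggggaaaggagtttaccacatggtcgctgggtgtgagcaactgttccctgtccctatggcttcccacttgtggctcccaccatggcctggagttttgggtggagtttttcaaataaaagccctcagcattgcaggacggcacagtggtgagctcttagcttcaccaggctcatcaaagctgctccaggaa
No capitals are set in it, and the absence of a match says only that these letters do not occur in this window.

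CCL2, the main monocyte attractant of the CC family, acts through CCR2. The table represents it by a retained-intron transcript (ENST00000624362, chr17:34255285-34257203, plus strand), 41.5% of whose bases lie outside other transcripts, and the protein-coding transcript is listed at 0. This transcript was at 7.35, 2.73 and 3.69 normalized reads in untreated libraries, 44.3, 34.1 and 44.8 with DAC, 15.8, 14.6 and 4.16 with ATRA, and 33.5, 27.4 and 30.9 with DAC + ATRA. DAC and DAC + ATRA libraries lay above all others, and the ATRA libraries overlapped the untreated ones. The log2 fold change was 2.99 with DAC and 2.58 with DAC + ATRA (SE 0.37 each). Both were called by limma with Benjamini-Hochberg adjustment, with adjusted p = 3.26e-07 and 2.34e-06. At a pseudocount of 10 the changes of CCL2 were 1.81 and 1.49. These values describe an unspliced form and not the CCL2 mRNA.

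CXCL9, CXCL10 and CXCL11 are the interferon-inducible ligands of CXCR3 and attract activated T cells and NK cells. Their genes follow each other on the minus strand of chromosome 4, CXCL9 (ENST00000264888) from 76001275 to 76007509, CXCL10 (ENST00000306602) from 76021118 to 76023497 and CXCL11 (ENST00000306621) from 76033682 to 76036070, with gaps of 13609 and 10185 bp and 4 exons each. The promoters are shown together because the 3 transcripts moved together with DAC. Capitals mark GAAANNGAA, the core of the interferon-stimulated response element, in CXCL9 and CXCL10, TTCNNNGAA, the gamma-activated site, in CXCL11, and GGGNNTTTC on the opposite strand in CXCL9 only, where it is the capital run nearer to the start.
CXCL9, chr4:76007460-76007759, minus strand: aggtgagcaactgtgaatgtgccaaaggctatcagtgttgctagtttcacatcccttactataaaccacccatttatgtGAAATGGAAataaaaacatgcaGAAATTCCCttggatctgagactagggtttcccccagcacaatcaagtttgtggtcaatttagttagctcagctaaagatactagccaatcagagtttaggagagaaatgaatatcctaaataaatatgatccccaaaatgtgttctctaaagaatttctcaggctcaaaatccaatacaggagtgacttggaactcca
CXCL10, chr4:76023448-76023747, minus strand: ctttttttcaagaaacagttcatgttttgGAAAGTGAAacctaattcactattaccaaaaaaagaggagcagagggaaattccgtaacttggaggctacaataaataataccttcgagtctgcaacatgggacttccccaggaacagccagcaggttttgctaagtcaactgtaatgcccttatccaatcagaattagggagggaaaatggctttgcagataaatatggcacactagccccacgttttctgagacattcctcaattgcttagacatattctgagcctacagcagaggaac
CXCL11, chr4:76036021-76036320, minus strand: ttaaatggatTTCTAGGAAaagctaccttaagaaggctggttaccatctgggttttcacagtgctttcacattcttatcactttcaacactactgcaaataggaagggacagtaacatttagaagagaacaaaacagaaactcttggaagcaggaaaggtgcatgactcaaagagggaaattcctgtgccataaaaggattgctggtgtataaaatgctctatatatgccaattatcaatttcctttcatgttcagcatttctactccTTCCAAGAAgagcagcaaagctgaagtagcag
Position 171 before the start holds the interferon-stimulated response element core of CXCL9, 149 before the start its NF-kB match, and 221 before the start the match in CXCL10. CXCL11 has the gamma-activated site at 240 before and 19 after the start. CXCL9 and CXCL11 hold 0 CpGs and CXCL10 has 3.

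No read of CXCL9 was counted in the untreated libraries, against 17.3, 18.5 and 23.9 normalized reads with DAC, 1.06, 0 and 0.832 with ATRA, and 10.8, 16.8 and 13.6 with DAC + ATRA. CXCL10 stood at 0.919, 5.46 and 7.39 in untreated libraries, 29.2, 25.3 and 16.9 with DAC, 8.45, 4.55 and 4.99 with ATRA, and 39.8, 42.1 and 54.4 with DAC + ATRA. For CXCL11 the values were 0.919, 0 and 1.85 in untreated libraries, 38.9, 39.0 and 21.9 with DAC, 3.17, 1.82 and 1.66 with ATRA, and 32.5, 34.7 and 51.9 with DAC + ATRA. All 3 transcripts were higher in each DAC-containing library than in any library without DAC. DAC and DAC + ATRA libraries overlapped for CXCL11, while they separated upwards for CXCL10 and downwards for CXCL9.

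Relative to 3 reads over the untreated group, CXCL9 was at least 21.7-fold higher with DAC and at least 14.998-fold higher with DAC + ATRA. CXCL11 had 3 reads in the untreated group, and its ratio was 36.1 with DAC (exact 95% interval 12.01 to 178) and 42.2 with DAC + ATRA (14.1 to 208). These intervals and bounds cover counting error only. CXCL10 had a ratio of mean values of 5.19 with DAC and 9.90 with DAC + ATRA. The log2 fold changes with DAC were 4.37 for CXCL9, 4.24 for CXCL11 and 2.37 for CXCL10, and with DAC + ATRA 3.86, 4.50 and 3.29, each called by limma with Benjamini-Hochberg adjustment (largest adjusted p = 4.48e-05). Over all settings, pseudocounts of 0.1 and 10 and single libraries left out included, the DAC value ran from 1.57 to 7.63 for CXCL9, from 1.96 to 5.79 for CXCL11 and from 1.22 to 2.78 for CXCL10. The DAC + ATRA value ran from 1.24 to 7.09, from 2.17 to 6.06 and from 1.94 to 3.71 in the same order. A second coding transcript of CXCL11 held 15.8% of the reads of its symbol.

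CXCL8 (interleukin 8) and CXCL2 are CXC chemokines with an ELR motif that attract neutrophils, CXCL8 through CXCR1 and CXCR2 and CXCL2 through CXCR2. They were the chemokine transcripts with the highest values in untreated cells. Both have 4 exons on chromosome 4, CXCL8 (ENST00000307407, plus strand) at 73740569 to 73743716 and CXCL2 (ENST00000508487, minus strand) at 74097040 to 74099195.

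CXCL8 reached 207, 113 and 123 normalized reads in untreated libraries, 315, 457 and 299.8 with DAC, 299, 208 and 166 with ATRA, and 514, 592 and 779 with DAC + ATRA. The DAC + ATRA libraries were the highest, the DAC libraries came next, and untreated and ATRA libraries overlapped. CXCL8 rose by 1.30 on the log2 scale with DAC (SE 0.26, limma with Benjamini-Hochberg adjustment, adjusted p = 0.000967) and by 2.11 with DAC + ATRA (SE 0.26, limma with Benjamini-Hochberg adjustment, adjusted p = 8.56e-06). The means were 2.42 and 4.26 times the untreated mean. CXCL2 reached 41.4, 38.2 and 33.2 in untreated libraries, 75.7, 123 and 89.6 with DAC, 48.6, 29.1 and 29.1 with ATRA, and 59.7, 54.7 and 66.7 with DAC + ATRA. Here the DAC libraries were highest and the ATRA libraries spanned the untreated range. CXCL2 rose by 1.31 with DAC (SE 0.22, limma with Benjamini-Hochberg adjustment, adjusted p = 2.34e-05). With DAC + ATRA its log2 fold change of 0.67 missed the threshold (SE 0.22, limma with Benjamini-Hochberg adjustment, adjusted p = 0.0122), although it passed when ATRA library 7 or 9 was left out (limma with Benjamini-Hochberg adjustment, adjusted p = 0.00667 and 0.00858). Over all settings the adjusted p of this comparison ran from 0.00359 to 0.0537 (Benjamini-Hochberg, with limma, edgeR or DESeq2).

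The promoter of CXCL2 is shown as the CpG-rich counterpart of those printed above, with 22 CpGs. Capitals mark GAAANNGAA 217 bases and GGGNNTTTC 78 bases before the start.
CXCL2, chr4:74099146-74099445, minus strand: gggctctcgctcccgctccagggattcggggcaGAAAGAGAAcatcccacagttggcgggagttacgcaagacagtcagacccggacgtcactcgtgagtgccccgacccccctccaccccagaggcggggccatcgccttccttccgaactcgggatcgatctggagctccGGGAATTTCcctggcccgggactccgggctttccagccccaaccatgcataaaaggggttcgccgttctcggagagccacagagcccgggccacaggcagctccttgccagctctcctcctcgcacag
The CXCL8 promoter held 4 CpGs and none of the 3 motifs as spelled here.

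CCL28 is a chemokine of mucosal epithelia that acts through CCR10 and CCR3. Its transcript (ENST00000361115) covers chr5:43379193-43412391 (minus strand). Untreated libraries held 0.919, 0 and 0 normalized reads of CCL28, DAC libraries 32.4, 65.3 and 57.8, ATRA libraries 1.06, 0 and 0, and DAC + ATRA libraries 67.8, 65.3 and 61.8. In both groups without DAC a single read was counted, and the DAC and DAC + ATRA libraries overlapped. The ratio of reads to untreated cells was 171 with DAC (exact 95% interval 30.3 to 6815, counting error only) and 213 with DAC + ATRA (37.8 to 8472). On the log2 scale the changes were 5.35 and 5.73 (SE 0.42 each), called by limma with Benjamini-Hochberg adjustment at adjusted p = 7.18e-11 and 1.30e-11. Over all settings, pseudocounts of 0.1 and 10 included, these sizes ran from 2.54 to 7.84 and from 2.86 to 8.23. A transcript of CCL28 subject to nonsense-mediated decay held 13.8% of the reads of the symbol.

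**Figure D2:**
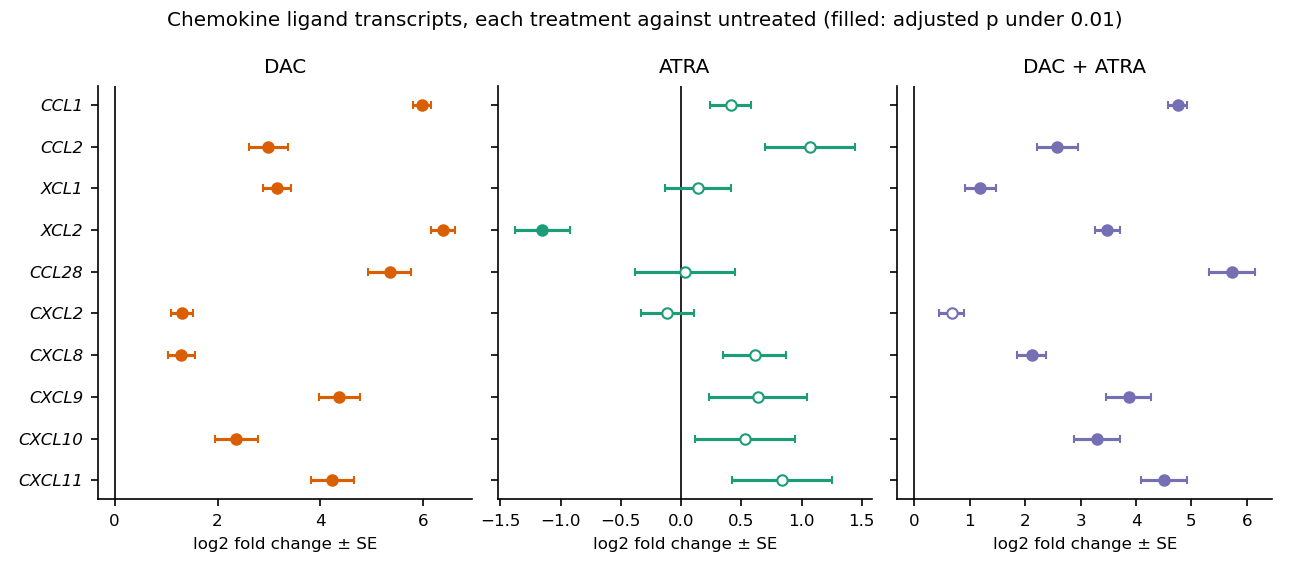
Log2 fold change ± SE (on the log2 scale of normalized read count + 1) of the 10 tested members with DAC, ATRA and DAC + ATRA against untreated cells, on separate horizontal axes. Filled points had an adjusted p under 0.01; all 10 are filled with DAC, XCL2 alone with ATRA, and all but CXCL2 with DAC + ATRA.

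Levels of different genes were compared per kb of exon. In untreated cells CXCL8 stood at 89.8 normalized reads per kb, CXCL2 at 33.7, CCL1 at 16.98, XCL2 at 10.9 and XCL1 at 8.98, while CXCL10 stood at 3.91, CXCL11 at 0.623, CCL28 at 0.0980 and CXCL9 at 0. With DAC the order began with CCL1 at 1161 and XCL2 at 1041 per kb, followed by CXCL8 at 217, CXCL2 at 86.1 and XCL1 at 85.9. CXCL11, CXCL10 and CCL28 then had levels of 22.5, 20.3 and 16.6 per kb and CXCL9 7.21. DAC + ATRA gave 498 per kb for CCL1, 383 for CXCL8, 137 for XCL2 and 54.2 for CXCL2. Single libraries overlapped for CCL1 and XCL2, for CXCL2 and XCL1, and among CXCL11, CXCL10 and CCL28 with DAC, and for CCL1 and CXCL8 with DAC + ATRA. In untreated cells neighbors in this order overlapped from CCL1 downwards except XCL1 and CXCL10. Of the bases of CXCL8, CXCL11, CXCL2 and CCL28, 77.2%, 68.6%, 57.0% and 54.9% lie outside other transcripts of the table, against 100% for the other members in this comparison, so that their levels per kb may be understated where shared bases were not counted.

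**Figure D3:**
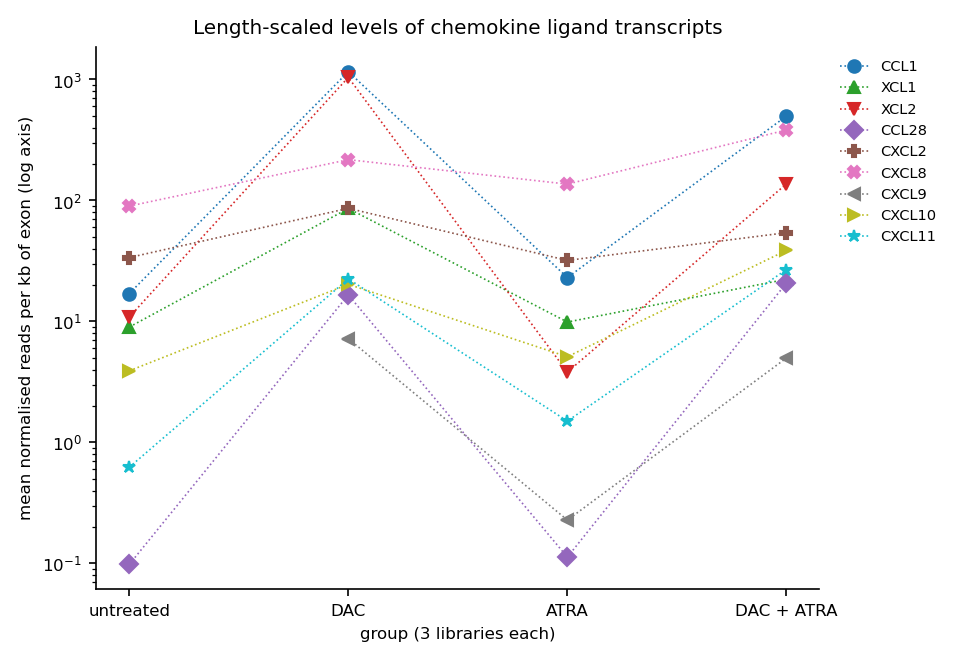
Mean normalized reads per kb of exon in the 4 groups (3 libraries each) on a log axis, with 1 line per gene. CCL2 is left out because its transcript is a retained intron, and CXCL9 at 0 in untreated cells is not drawn; CCL1 and XCL2 pass CXCL8 with DAC, and the mean of CXCL8 lies between them with DAC + ATRA.

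ATRA as a single agent addresses which ligands respond to the retinoid without DAC. XCL2 was the only tested member called, with 20 reads over the 3 untreated and 7 over the 3 ATRA libraries. It fell by 1.15 on the log2 scale (SE 0.23, limma with Benjamini-Hochberg adjustment, adjusted p = 0.000900). The call depended on the setting: adjusted p was 0.0796 with edgeR, 0.146 with DESeq2, 0.122 with limma at a pseudocount of 10, and 0.0113 with limma without untreated library 2, all with Benjamini-Hochberg adjustment, and it ran from 0.000245 to 0.146 over all settings. The log2 fold change was -1.46 with edgeR, -1.51 with DESeq2, -0.95 without untreated library 2 and -0.40 at a pseudocount of 10. CXCL8 had a log2 fold change of 0.61 (limma with Benjamini-Hochberg adjustment, adjusted p = 0.177), which passed without a filter (limma with Benjamini-Hochberg adjustment, adjusted p = 0.00272; range over all settings 0.00272 to 0.445). CCL1 had a log2 fold change of 0.41 and its ATRA libraries lay above the untreated ones, but the change was not called (limma with Benjamini-Hochberg adjustment, adjusted p = 0.137). CCL2 had a log2 fold change of 1.07 (SE 0.37, limma with Benjamini-Hochberg adjustment, adjusted p = 0.0684), with ATRA library 9 at 4.16 and the other ATRA libraries at 15.8 and 14.6. Without library 9 it was 1.62 and called (limma with Benjamini-Hochberg adjustment, adjusted p = 0.00110; range over all settings 0.00110 to 0.298). The log2 fold changes of the other members ran from -0.11 for CXCL2 to 0.84 for CXCL11.

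DAC + ATRA against DAC asks what the retinoid changes in DAC-treated cells. XCL2, XCL1 and CCL1 fell, and these were the 3 of 10 tested members called, beside 8.77% of all tested transcripts. 6 of the 10 had an unadjusted limma p under 0.05. XCL2 fell by 2.91 on the log2 scale (SE 0.23, limma with Benjamini-Hochberg adjustment, adjusted p = 6.48e-10), from a mean of 585 to 77.1. XCL1 fell by 1.96 (SE 0.27, limma with Benjamini-Hochberg adjustment, adjusted p = 8.25e-06), from 105 to 27.4, and CCL1 by 1.22 (SE 0.17, limma with Benjamini-Hochberg adjustment, adjusted p = 8.07e-06), from 689.6 to 296. Expressed as ratios, the DAC mean was 7.59, 3.85 and 2.33 times the DAC + ATRA mean. All 3 DAC + ATRA libraries lay below all 3 DAC libraries for each of these genes.

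CXCL8 was higher in each DAC + ATRA library than in each DAC library, with a log2 fold change of 0.82 (SE 0.26), and the limma test missed the threshold (Benjamini-Hochberg adjusted p = 0.0515). With edgeR on the reads it passed (Benjamini-Hochberg adjusted p = 0.00233), and over all settings the adjusted p ran from 4.37e-06 without a filter to 0.168. CXCL10 also separated upwards, with a log2 fold change of 0.92 (SE 0.41, limma with Benjamini-Hochberg adjustment, adjusted p = 0.156). With only these groups in the limma fit it passed (Benjamini-Hochberg adjusted p = 0.00870, range over all settings 0.00870 to 0.4). CXCL2 had lower values in each DAC + ATRA library, at a log2 fold change of -0.64 (limma with Benjamini-Hochberg adjustment, adjusted p = 0.0520). For CCL28, CXCL11, CCL2 and CXCL9 the log2 fold changes were 0.38, 0.27, -0.41 and -0.51, none of them called. The median over the 10 members was -0.46, beside -0.01 over all tested transcripts.

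The DAC x ATRA interaction, which is 0 where the combined log2 fold change equals the sum of those of DAC and ATRA, was called for 3 of the 10 tested members, all negative, beside 1.51% of all tested transcripts, and 4 of the 10 had an unadjusted limma p under 0.05. These were XCL1 at -2.10 (SE 0.39, limma with Benjamini-Hochberg adjustment, adjusted p = 0.00150), XCL2 at -1.76 (SE 0.33, limma with Benjamini-Hochberg adjustment, adjusted p = 0.00154) and CCL1 at -1.63 (SE 0.24, limma with Benjamini-Hochberg adjustment, adjusted p = 0.000104). The term for CCL1 was called in each setting in which it was tested. XCL1 was called in all but 1 setting, edgeR without DAC library 6, which was chosen after seeing the data (-1.93, edgeR with Benjamini-Hochberg adjustment, adjusted p = 0.0138; range over all settings 9.96e-05 to 0.0138). The call for XCL2 was lost with edgeR (-1.46, Benjamini-Hochberg adjusted p = 0.341), with DESeq2 (-1.42, Benjamini-Hochberg adjusted p = 0.251) and with limma at a pseudocount of 0.1 (-1.49, Benjamini-Hochberg adjusted p = 0.0217). Without DAC library 6 or DAC + ATRA library 10 it was -1.69 and -1.68 (limma with Benjamini-Hochberg adjustment, adjusted p = 0.0129 and 0.0116), and over all settings the adjusted p ran from 1.91e-08 to 0.457. XCL2 had 7 reads over the ATRA libraries, which enter this term. CCL2 had an interaction of -1.48 (limma with Benjamini-Hochberg adjustment, adjusted p = 0.152), which passed without ATRA library 9 (-2.03, limma with Benjamini-Hochberg adjustment, adjusted p = 0.00543; range over all settings 0.00543 to 0.356). The remaining terms ran from -1.15 for CXCL9 to 0.39 for CXCL10.

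**Figure D4:**
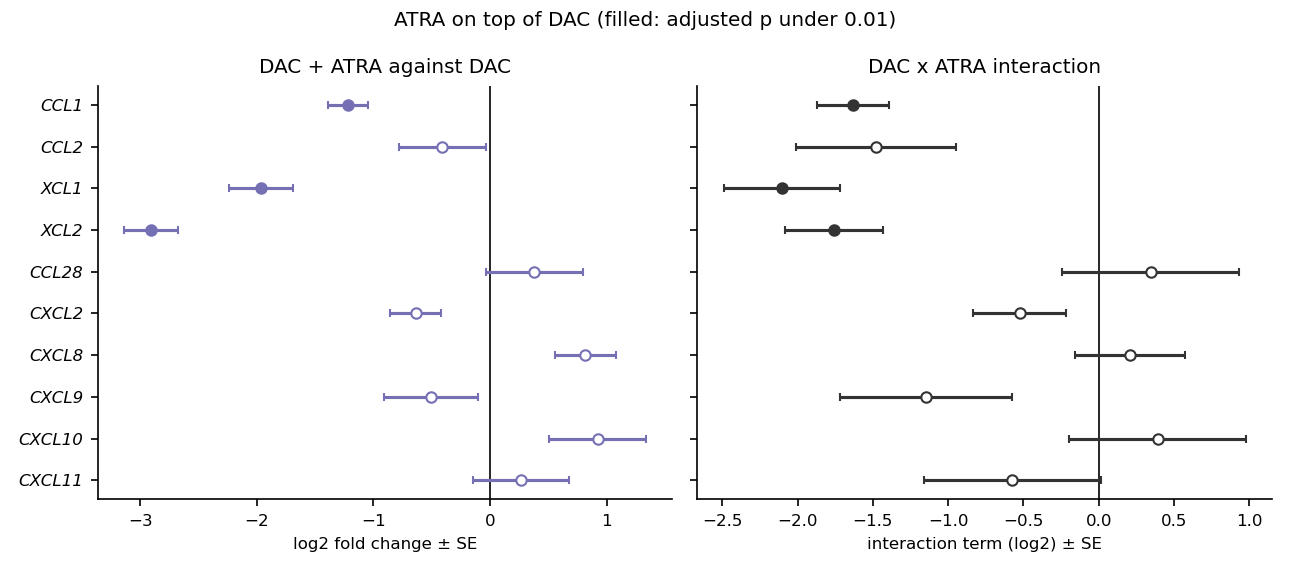
Log2 fold change ± SE of the 10 tested members in DAC + ATRA against DAC cells, and the DAC x ATRA interaction term ± SE on its own axis. Filled points had an adjusted p under 0.01; CCL1, XCL1 and XCL2 are filled and negative in both.

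DAC + ATRA against ATRA shows what DAC adds to the retinoid. All 10 tested members were higher and called, beside 29.4% of all tested transcripts, with a median log2 fold change of 2.99 beside 0.03. The filter fixed part of this count and median too: CCL28, CXCL9, CXCL10, CXCL11 and XCL2 reached a value of 10 only in DAC-containing libraries. Both therefore describe these 10 members and support nothing beyond them. The log2 fold change was 5.70 for CCL28, 4.63 for XCL2, 4.34 for CCL1, 3.66 for CXCL11, 3.23 for CXCL9 and 2.76 for CXCL10. CCL2 and CXCL8 followed at 1.51 and 1.505, and XCL1 at 1.05. CXCL2 had the smallest change with 0.78 (SE 0.22, limma with Benjamini-Hochberg adjustment, adjusted p = 0.00551).

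The calls of 3 of these genes depended on single libraries or on the setting. For CXCL2, the limma test with Benjamini-Hochberg adjustment missed the threshold without ATRA library 8 or 9 (adjusted p = 0.0325 and 0.0273) and without DAC + ATRA library 10, 11 or 12 (adjusted p = 0.0175, 0.0101 and 0.0296), with a range over all settings of 0.000735 to 0.0325. CXCL2 was also not called with DESeq2 (Benjamini-Hochberg adjusted p = 0.0123), or with limma after library size scaling or with only these groups (Benjamini-Hochberg adjusted p = 0.0129 and 0.0107). For XCL1 it missed without ATRA library 9 (adjusted p = 0.0124, limma with Benjamini-Hochberg adjustment) and without DAC + ATRA library 10 or 11 (0.0289 and 0.0270), as well as with only these groups (0.0121), with a range of 0.000250 to 0.0289. For CCL2 it missed without ATRA library 9, where the log2 fold change was 0.96 (adjusted p = 0.0246, limma with Benjamini-Hochberg adjustment), and without DAC + ATRA library 10 (1.44, adjusted p = 0.0127), with a range of 0.000152 to 0.0246.

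By role, 2 of 17 inflammatory CC ligands of chromosome 17 were tested (CCL1 and CCL2), 2 of 6 ELR CXC ligands (CXCL2 and CXCL8), 3 of 3 CXCR3 ligands, 2 of 2 XC ligands, 1 of 14 tissue, homeostatic and lymphoid ligands (CCL28) and none of 2 membrane-bound ligands (CX3CL1 and CXCL16). CCL15-CCL14, a readthrough transcript, was put in no group. CXCL1, a neutrophil attractant like CXCL2, was listed at 0 in the 6 libraries without DAC, at 2.16, 11.7 and 5.98 normalized reads with DAC and at 6.33, 4.21 and 3.71 with DAC + ATRA, and it did not pass the filter. Without a filter 25 members were tested, and limma with Benjamini-Hochberg adjustment also called CXCL1 higher with DAC and DAC + ATRA against untreated cells and with DAC + ATRA against ATRA, among 11, 10 and 11 members called. CCL25, a ligand of CCR9, ranged from 0.832 to 7.41, and CCL22, a ligand of CCR4, from 0 to 4.94. CXCL16, a membrane-bound ligand of CXCR6, was listed at 0 in the 6 untreated and DAC libraries and ranged from 0 to 4.94 in the 6 ATRA-containing libraries.

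At most 3 reads in any library were counted for CCL8, CCL13, CCL20, CCL24, CCL26, CXCL3, CXCL5, CXCL6, CXCL12, CXCL13 and CXCL17. Listed at 0 in all libraries were CCL3, CCL3L1, CCL3L3, CCL4, CCL4L2, CCL5, CCL7, CCL11, CCL14, CCL15, CCL15-CCL14, CCL16, CCL17, CCL18, CCL19, CCL21, CCL23, CCL27, CX3CL1 and CXCL14. None of these members passed the filter. The share of 50-base exon windows with an exact copy elsewhere in hg38, alternate contigs included, was over 50% in 10 of the 19 members listed at 0 that could be placed on the annotation. Counting copies on the chromosomes alone, none of the 19 reached 50%, and the largest share was 20.7% for CCL5. With alternate contigs it was 100% for CCL3, CCL3L3, CCL4, CCL4L2, CCL5, CCL14 and CCL18, 89.4% for CCL15, 76.2% for CCL15-CCL14 and 62.6% for CCL23. In 7 of the 19 no window was copied (CCL7, CCL11, CCL17, CCL19, CCL21, CCL27 and CXCL14). Of the bases of these 7 transcripts, the share outside other transcripts was 0% for CCL27, 0.617% for CCL7, 10.8% for CCL19 and 11.5% for CCL17. It was 14.6% for CXCL14, 39.0% for CCL21 and 100% for CCL11. CCL25, with 32 reads in all, had a share of 0% as well. Among the 10 tested members, 9 had no copied window and CCL28 had 2.22%. PTPRC, TNF, IRF7 and NFKBIE, which leukocytes or activated monocytes use, were also listed at 0 throughout, so that a listing at 0 is not a measure of expression here. The part of copied sequence, or of bases shared with other transcripts, in these zeros was not tested.

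**Figure D5:**
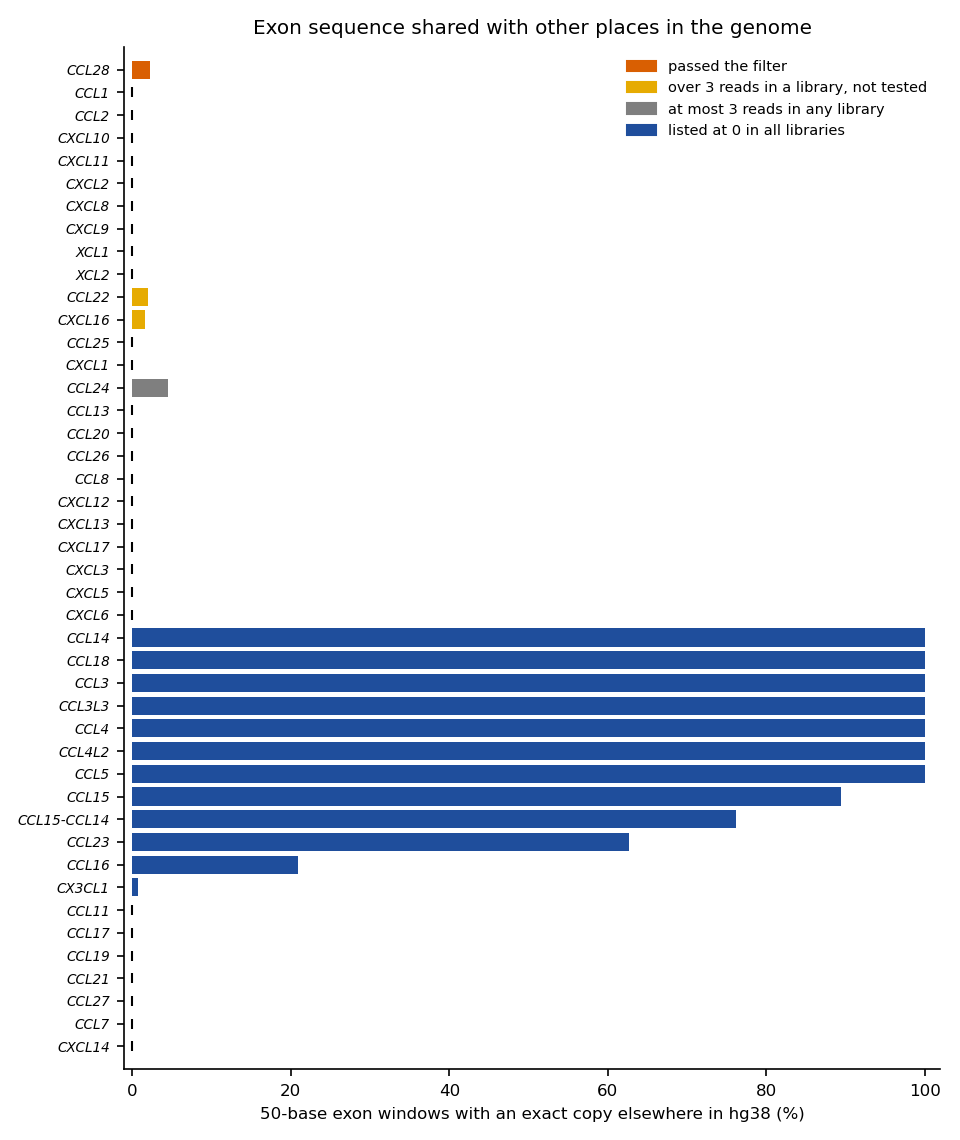
Percentage of 50-base exon windows with an exact copy elsewhere in hg38 for the 44 chemokine ligand symbols placed on the annotation, colored by class. Bars over 50% occur only among members listed at 0 in all libraries, such as CCL3, CCL4 and CCL5 at 100%.

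RefSeq promoters of 300 bases were found for 8 of the 10 tested members (all but CCL2 and XCL1), with 9 promoters because CCL28 has alternative starts. Their median CpG count was 4, and 7 of 9 lay below 14, the median of all 35116 promoters. The 27 promoters of 23 members that were not tested had a median of 4 as well. CCL28 had 24 CpGs at one start and 3 at the other. The interferon-stimulated response element core occurred on either strand in 3 of the 9 (CXCL2, CXCL9 and CXCL10), beside 8.11% of all promoters. The gamma-activated site occurred in 1 (CXCL11), beside 7.66%, and the NF-kB core in 3 (CXCL2, CXCL9 and XCL2), beside 4.78%. Among the 27 promoters of members not tested the same motifs occurred in 4, 7 and 6, so that they were not particular to the tested members. No motif match overlapped another in the promoters printed. A match describes the sequence, and binding was not measured.

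Tested neighbors within 100 kb of the members were few. NAAA, an amidase gene beside the CXCR3 ligands, had a log2 fold change of 0.09 with DAC (limma with Benjamini-Hochberg adjustment, adjusted p = 0.682), while CXCL9, CXCL10 and CXCL11 rose. MTHFD2L, 58923 bp from CXCL2, was not called at -0.42 (limma with Benjamini-Hochberg adjustment, adjusted p = 0.357). Near CCL28, the lncRNA RP11-159F24.6 rose by 3.15 with DAC (limma with Benjamini-Hochberg adjustment, adjusted p = 3.54e-06), C5orf34 fell by 0.90 (limma with Benjamini-Hochberg adjustment, adjusted p = 0.00848), and C5orf28, NIM1K and a retained-intron transcript of HMGCS1 were not called. The HMGCS1 transcript fell by 2.59 with DAC + ATRA (limma with Benjamini-Hochberg adjustment, adjusted p = 0.000359).

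Chemokine genes named outside the rule were looked up as well. PPBP, a platelet-derived ELR chemokine, passed the filter and ranged from 0.832 to 16.8 normalized reads. PF4 and PF4V1, also platelet chemokines, did not exceed 0.974 and 1.95.

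Genes of receptors through which these ligands act were looked up in the same table. Of 23 receptor genes listed, 13 were tested and all 13 rose with DAC + ATRA against untreated cells, with a median log2 fold change of 2.77 beside 0.05 over all tested transcripts. DAC raised 10 of the 13 and ATRA 9. Of all tested transcripts 33.5%, 6.97% and 41.6% were called with DAC, ATRA and DAC + ATRA. The filter fixed part of this count and median too: CXCR1 reached a value of 10 only with DAC + ATRA, XCR1 only in the DAC-containing, CCR3 and CCR7 only in the ATRA-containing, and CCR2 and CXCR5 only in treated libraries. With DAC + ATRA, CXCR1 rose by 5.95 and CXCR5 by 5.57 on the log2 scale, and CCR1, a receptor for several inflammatory CC ligands, was the most abundant. Here and below, the most abundant gene of a list is the one with the most normalized reads, without regard to transcript length.

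For the ligands that rose, receptors from the list were looked at one by one. XCR1, the receptor of XCL1 and XCL2, was at 1.84, 0 and 1.85 normalized reads in untreated libraries, 14.1, 21.4 and 29.9 with DAC, 1.06, 3.64 and 1.66 with ATRA, and 33.5, 44.2 and 30.9 with DAC + ATRA. Its DAC-containing libraries lay above all others, with a log2 fold change of 3.44 with DAC and 4.20 with DAC + ATRA. CCR2, the receptor of CCL2, was at 1.84, 1.82 and 1.85 in untreated libraries, 33.5, 39.9 and 51.8 with DAC, 96.1, 85.6 and 67.4 with ATRA, and 62.4, 49.5 and 85.3 with DAC + ATRA. It was higher in each treated library than in the untreated ones. CXCR1, which binds CXCL8, was at 57.9, 69.5 and 55.6 with DAC + ATRA and at 7.79 or less in all other libraries. CXCR2 rose by 1.02 with ATRA and by 0.76 with DAC + ATRA, and its log2 fold change of 0.24 with DAC was not called. CCR8, the receptor of CCL1, did not exceed 0.974 in any library, and CXCR3, the receptor of CXCL9, CXCL10 and CXCL11, did not exceed 2.71. CCR10 and CCR3, the receptors of CCL28, reached 9.96 and 44.3 at most, CCR3 on a retained-intron transcript. CCR9, CXCR6 and ACKR1 were listed at 0.

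Among proteases that trim or shed chemokines, 5 of 8 were tested and 4 rose with DAC + ATRA, where 41.6% of all tested transcripts were called, 4945 upwards and 3120 downwards. MMP9, a gelatinase that processes CXC chemokines, rose by 5.78 on the log2 scale, DPP4, which truncates CXCL9, CXCL10 and CXCL11, by 3.36, and CTSB, a cathepsin, by 0.64. The median of the 5 was 0.64. DPP4, like BCL3 below, reached a value of 10 only in the 6 DAC-containing libraries and passed the filter through these. Of 15 NF-kB pathway genes, 9 were tested and 3 rose, namely BCL3, a nuclear co-regulator, by 3.93, the cytokine gene IL1B by 3.23 and the adaptor gene TRAF1 by 1.39, with a median of 0.62. Of 15 genes of the interferon arm, 11 were tested and 8 rose, with a median of 0.95. IRF1, a transcription factor of interferon responses, rose by 3.67 and IRF9 by 2.33, the latter measured on a transcript subject to nonsense-mediated decay. IFNG was listed at 0 and IFNB1 did not exceed 6.49.

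Summed over the 15 genes of the interferon arm, normalized reads were 7939, 7662 and 7509 in untreated libraries, 11185, 12374 and 11087 with DAC, 9869, 9200.3 and 8494 with ATRA, and 13826, 15255 and 15314 with DAC + ATRA, and JAK1 was the most abundant. The NF-kB genes summed to 622, 595 and 580.0 in untreated libraries, 910.2, 971 and 902 with DAC, 962, 813 and 856 with ATRA, and 1267, 1321 and 1341 with DAC + ATRA, with REL the most abundant over all libraries. The mean of IL1B was 62.4 in untreated and 593 in DAC + ATRA cells, and that of REL 410.4 and 439.8. Both sums were lowest in untreated and highest in DAC + ATRA libraries, and the part of either pathway in the ligand changes was not tested.

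The label of the cell line was set against marker genes. Of 12 myelomonocytic markers, 9 were tested. MPO, the granule peroxidase of the lineage, was the most abundant with 52196, 55158 and 49005 normalized reads in untreated libraries and fell by 1.80 on the log2 scale with DAC + ATRA. ITGAM, CSF1R and ITGAX, markers of monocytic maturation, rose by 3.75, 3.54 and 3.37, the last 2 measured on retained-intron transcripts, and 5 of the 9 were called in all, beside 41.6% of all tested transcripts. CSF1R reached a value of 10 only with DAC + ATRA and passed the filter through this group. PTPRC was listed at 0, and CD68 and CD14 did not exceed 2.71 and 2.47. The list summed to 57251, 60630.1 and 54196 in untreated libraries, 40291, 26638 and 34405 with DAC, 42444, 44565 and 32513 with ATRA, and 24769, 25044 and 23622 with DAC + ATRA.

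Markers of T and NK cells, typical sources of XCL1, XCL2 and CCL1, moved with these ligands in part. CD2, an adhesion receptor of these cells, was the most abundant of the 5 listed in both DAC-containing groups and was at 2.76, 3.64 and 10.2 normalized reads in untreated libraries, 292, 368 and 385 with DAC, 7.39, 4.55 and 5.83 with ATRA, and 127, 175 and 121 with DAC + ATRA. It was called with DAC (log2 fold change 5.90), as 1 of 2 list members tested beside 33.5% of all transcripts, and in DAC + ATRA against DAC (log2 fold change -1.31). NCAM1, an NK cell marker and the other one tested, was the most abundant in untreated and ATRA cells, and its log2 fold change with DAC was 0.00847. The T cell markers CD3D and CD3E did not exceed 2.71 and 0.974, and GNLY of cytotoxic cells did not exceed 8.65. CD3E and GNLY are represented by retained-intron transcripts and CD3D by a transcript without a defined coding sequence, so that these values do not measure their mRNA. The list summed to 13.8, 16.4 and 23.1 in untreated libraries, 312, 385 and 396 with DAC, 18.0, 14.6 and 20.0 with ATRA, and 146, 197 and 142 with DAC + ATRA.

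Other lineage lists had higher sums in the DAC-containing libraries. With DAC + ATRA 41.6% of all tested transcripts were called, against which the counts of these short lists are to be read. Of 3 B cell markers, 2 were tested and CD79A, the most abundant, rose by 3.34 with DAC + ATRA, while MS4A1 did not exceed 1.99. This list summed to 143, 137 and 132 in untreated libraries, 533, 527 and 518 with DAC, 354, 374 and 227 with ATRA, and 1314, 1337 and 1393 with DAC + ATRA. Of 5 erythroid and megakaryocyte markers, the platelet genes GP9 and ITGA2B were tested and rose by 5.64 and 2.37 with DAC + ATRA, whereas the hemoglobin genes HBA1 and HBB were listed at 0. GP9 reached a value of 10 only in the DAC-containing libraries and passed the filter through these. The 5 genes summed to 13.8, 24.6 and 28.6 in untreated libraries, 371, 496 and 502 with DAC, 25.3, 35.5 and 25.0 with ATRA, and 268, 262 and 245 with DAC + ATRA, with GP9 the most abundant in both DAC-containing groups and ITGA2B in the others. Of 7 endothelial, epithelial and fibroblast markers, 4 were tested and rose with DAC + ATRA, PECAM1 by 4.42, PDGFRB by 4.16, VWF by 2.94 and COL1A1 by 2.83, while EPCAM and KRT18 (a retained-intron transcript) did not exceed 9.96 and 1.24. Here the sum was 165, 169 and 209.6 in untreated libraries, 2907, 2959.6 and 2893 with DAC, 432, 415 and 366 with ATRA, and 3294, 3706 and 3417 with DAC + ATRA, mostly PECAM1. The part of any of these marker genes in the ligand changes was not tested.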

How the data were processed

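RNA was measured in 12 libraries of U937 cells, 3 per group, with groups taken from the sample titles. Per the labels, the authors used FastQC, STAR, HTSeq and DESeq2 with hg38; versions, annotation release, counting mode and strand setting are not given in the sources used here. The deposited signal values are read counts per transcript that the authors divided by 1 size factor for each library. After multiplication by the recovered size factor, 100% of values were whole reads (tolerance 0.001 of a read), and these factors equal those DESeq2 computes. Between libraries of a group, the chi-square divided by its degrees of freedom was 2.05 to 8.19, above the 1 of counting noise.

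The tests were limma 3.58.1 on log2(value + 1) (lmFit, then eBayes with its trend and robust options; R 4.3.3), with all 12 libraries in a single fit, the filter of 10 in 3 libraries and Benjamini-Hochberg adjustment over 19373 transcripts of any class, tested on simulated data. The size factors made limma the planned test. Alternatives were edgeR 4.0.16 and DESeq2 1.42.0 on the recovered reads, library size scaling, other filters, pseudocounts of 0.1 and 10, protein-coding transcripts only, transcripts summed by symbol, only the groups compared, a threshold of 0.05 and leaving out each library. On the recovered reads edgeR with TMM called 6732 transcripts for DAC, 1339 for ATRA and 8195 for DAC + ATRA against untreated cells, 1959 for DAC + ATRA against DAC, 5855 against ATRA and 235 for the interaction. GENCODE 44 placed 174768 transcripts by identifier. Exon windows of 50 bases were searched in hg38 with BLAST+ 2.17.0, and promoters were read from RefSeq (GRCh38.p14) and searched on both strands. Tables were made in Python 3.11.15 with pandas 2.3.3, numpy 2.4.6 and scipy 1.17.1 and plots with matplotlib 3.10.9.

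Named are all tested members, those with more than 3 reads in a library, the others by symbol, and from each list up to 3 called members in each direction with DAC + ATRA. The members and lists were chosen with earlier results of these data known.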

Additional observations from a re-analysis of the deposited data

Results flagged for a closer look

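For 3 members the effect of ATRA differed between cells with and without DAC by a test of the difference itself, the DAC x ATRA interaction in limma with Benjamini-Hochberg adjustment. The interaction was -1.63 for CCL1, -2.10 for XCL1 and -1.76 for XCL2 on the log2 scale, and the last was not called with edgeR or DESeq2. No test for a library that stands apart was run. The chi-square divided by its degrees of freedom was 5.31 and 8.19 for ATRA library 9 against libraries 7 and 8, and 3.66 between libraries 7 and 8.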

How the results depend on the processing

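Over 25 alternative settings, 1426 values for 60 combinations of gene and comparison were recomputed: 1376 kept their direction and side of the threshold, 28 were no longer called, 12 became called and 10, none of them called, changed sign. DAC against untreated cells kept 10 calls whichever library was left out. Leaving out a library gave 0 to 2 calls for ATRA, 9 to 10 for DAC + ATRA, 3 to 3 for DAC + ATRA against DAC, 7 to 10 against ATRA and 2 to 4 for the interaction. The ATRA count of 1 was 0 without untreated library 2 (limma, 2 members with unadjusted p under 0.05) and 2 without ATRA library 9. It was 0 with edgeR with TMM or DESeq2 size factors (3 with unadjusted p under 0.05 in both), with DESeq2 (2) and with limma at a pseudocount of 10 (3). With only the groups compared it was 0 (limma, 1 with unadjusted p under 0.05), where 4 members passed the filter and XCL2 was not tested. Without a filter it was 2 of 25 tested. Requiring 10 in every library left 2 members to test, with counts of 2 for DAC, 0 for ATRA (limma, 1 with unadjusted p under 0.05), 1 for DAC + ATRA, 0 for DAC + ATRA against DAC (2), 2 against ATRA and 0 for the interaction (0), because fewer genes were tested. Only the groups compared gave 5 calls for DAC + ATRA against DAC. This setting does not apply to the interaction. edgeR without DAC library 6, chosen after seeing the data, gave 0 for ATRA (3 with unadjusted p under 0.05) and 1 for the interaction; the cause was not tested.

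Signs changed only where no call was made. With a library left out, the log2 fold change with ATRA ran from -0.31 to 0.35 for CCL28 (negative without untreated library 2 or 3, -0.12 each, or ATRA library 7), from -0.11 (without untreated library 1) to 0.95 for CXCL10, and from -0.35 to 0.00686 for CXCL2 (positive without ATRA library 8, and 0.00684 without 9). For CXCL11 in DAC + ATRA against DAC it ran from -0.00222 (without DAC library 6) to 0.40. The interaction ran from -0.0253 (without untreated library 3) to 1.04 for CXCL10 and from -0.0613 (without untreated library 1) to 0.44 for CXCL8, and was 0.0451 for CXCL11 at a pseudocount of 10. Scaling by library size moved the median log2 fold change of all transcripts from 0.05 to -0.07 with DAC and from 0.05 to -0.10 with DAC + ATRA. Under it 3728 transcripts rose and 3000 fell with DAC, 876 rose and 568 fell with ATRA, beside 989 and 362 with the deposited scaling, and 4258 rose and 4031 fell with DAC + ATRA, beside 4945 and 3120. No paired analysis was possible because the columns carry no replicate number that ties a library of one group to a library of another.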
